A study of Mus musculus with 24 samples.

Results

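The genes of voltage-gated calcium channels, voltage-gated sodium channels and potassium channels were followed in sorted cells of the mouse intestine. Members were all protein-coding genes whose symbol starts with *Cacna*, *Cacnb* or *Cacng*, whose symbol has the form *Scn* with a number and a or b, or whose symbol starts with *Kcn*. There were 134 such genes among the 53465 genes counted, and 5 antisense genes with a *Kcn* symbol were left out. The rule reads symbols and biotypes, not levels.

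Cells came from Guca2a-Venus mice, a transgenic reporter line made with a bacterial artificial chromosome. Regulatory sequence of *Guca2a*, the gene of proguanylin, drives the fluorescent protein Venus in it. The line descends from 1 founder on a C57Bl6J/CBA background that was crossed back to C57Bl6J, and the age of the mice is not given in the sources used here. The epithelium of the duodenum, jejunum, ileum and colon was digested to single cells and sorted by Venus fluorescence (labelled GFP positive and GFP negative), after dead cells, debris and CD45-positive immune cells had been gated out. All 8 groups (4 regions, Venus-positive or Venus-negative) carried the transgene and received no treatment, and each had 3 libraries of total RNA, which the series describes as made from 3 different mice. Only strongly fluorescent cells (Venus-positive) and cells without fluorescence (Venus-negative) were collected, so that cells of intermediate signal are in neither sort. The comparison sets cells with an active *Guca2a* transgene against a mixture of epithelial cells of the region that lack the signal. In such bulk samples, fewer cells of a type and less RNA per cell cannot be told apart.

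Voltage-gated calcium and sodium channels open when the membrane depolarises. In the gut epithelium they are best known from enteroendocrine cells, which fire action potentials and release hormone when calcium enters. Potassium channels set the resting potential of every epithelial cell, and in crypts the basolateral channels built from *Kcnq1* with *Kcne3*, or from *Kcnn4*, provide the driving force for chloride secretion, while the large-conductance channel encoded by *Kcnma1* is the apical route of colonic potassium secretion. Tandem pore domain channels (*Kcnk* genes) carry background potassium current and respond to pH, volume or lipids.

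Reads on genes ranged from 7458616 to 23063124 per library, of which 2583422 to 7434139 came from nuclear genes. The share of mitochondrial reads was 32.3% to 46.6% in the Venus-positive and 64.6% to 76.4% in the Venus-negative libraries of the duodenum, 47.1% to 60.6% against 61.2% to 78.8% in the jejunum and 41.0% to 55.4% against 64.7% to 70.9% in the ileum, and overlapped between the sorts in the colon. Its part in the sort differences was not tested. The unit of a level is CPM, the reads of a gene relative to the size of its library, which was adjusted by the trimmed mean of M values (TMM), and a count of 3, the floor below which a gene was taken as not detected, was worth 0.106 to 0.360 CPM. *Guca2a* was higher in Venus-positive cells of every region, with log2 fold changes of 2.65 to 5.75, although its own reads cannot be separated from the untranslated sequence of the transgene. All 7 goblet cell markers were higher in Venus-positive cells in each of the 4 regions, and 8 or 9 of 9 enterocyte markers in the jejunum and ileum. Summed levels of the marker lists of neurons, glia, smooth muscle, endothelium, fibroblasts, B and plasma cells, and T cells and lymphocytes reached at most 12.6 CPM in any library, and those of macrophages at most 29.4 CPM, with all 4 glial markers at or under the floor in 5 of the 8 groups.

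Most channel genes were not detected. A gene was called detected in a group when it had more than 3 counts in all 3 libraries, and 46 of 134 genes met this in at least 1 group, 13 in only 1 and 6 in all 8, whereas 88 met it in none and 8 had no count in any library. Families differed in this count. Of 10 calcium channel pore genes 6 were detected in some group, of 14 tandem pore domain genes 6, of 15 inward rectifiers 6 and of 40 voltage-gated potassium channel pore genes 14. Only 1 of 10 sodium channel pore genes (*Scn3a*), 1 of 4 sodium channel beta genes (*Scn2b*) and 1 of 13 potassium channel accessory genes (*Kcne3*) were. The 6 genes detected everywhere were *Kcne3*, *Kcnk1*, *Kcnk5*, *Kcnq1*, *Cacna1a* and *Cacnb3*. Venus-negative cells held more detected channel genes than Venus-positive cells in the small intestine: 29 against 16 in the duodenum, 24 against 16 in the jejunum and 33 against 18 in the ileum. In the colon the counts were 23 and 22, with 2583422 to 3701407 nuclear reads in the Venus-negative and 3808547 to 5307277 in the Venus-positive libraries. In the jejunum the Venus-positive libraries were the deeper ones, with 6853319 to 7434139 nuclear reads against 3973369 to 6364001. Over all 21865 protein-coding genes the share detected was 46.5% in Venus-positive and 49.8% in Venus-negative duodenal cells, beside 11.9% and 21.6% of the channel genes. It was 45.3% and 49.9% in the jejunum (channel genes 11.9% and 17.9%) and 46.8% and 52.4% in ileal cells (13.4% and 24.6%). Over all genes the order turned in the colon, at 50.5% for the Venus-positive and 46.5% for the Venus-negative sort, beside 16.4% and 17.2% of the channel genes.

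**Figure D1:**
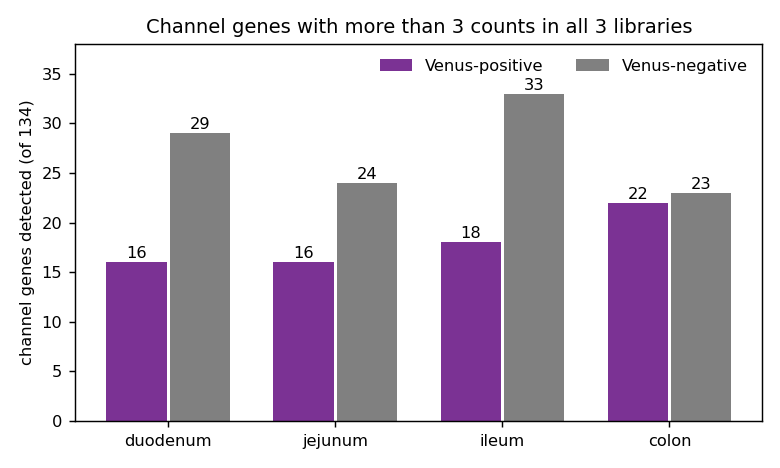
Number of channel genes detected, of 134, in Venus-positive (purple) and Venus-negative (grey) cells of each region on the horizontal axis. The Venus-negative bars reach 24 to 33 genes in the small intestine and the Venus-positive bars 16 to 18, while the colonic bars stand at 22 and 23.

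In the duodenum 17 channel genes were detected in Venus-negative but not in Venus-positive cells, or 12.7% beside 4.77% of all protein-coding genes. They included the calcium channel genes *Cacna1c*, *Cacna1d*, *Cacna1h* and *Cacna2d1*, the sodium channel genes *Scn2b* and *Scn3a*, and potassium channel genes such as *Kcnc1*, *Kcnd3*, *Kcnj3* and *Kcnj11*. The jejunum had 13 such genes (9.7% beside 6.28%), the ileum 16 (11.9% beside 6.94%) and the colon 10 (7.46% beside 1.4%). *Cacna1c*, *Cacna2d1*, *Scn2b* and *Scn3a* were in this position in all 4 regions, although levels overlapped between the sorts for *Cacna1c* in the duodenum and colon, for *Scn2b* in the duodenum and for *Scn3a* in the colon. Genes detected in Venus-positive but not in Venus-negative cells numbered 4 in the duodenum (*Cacna1b*, *Cacna2d2*, *Kcnk6*, *Kcnma1*), or 2.99% beside 1.42% of all protein-coding genes. There were 5 for jejunal (3.73% beside 1.65%), 1 for ileal (0.746% beside 1.34%) and 9 for colonic tissue (6.72% beside 5.44%). Levels overlapped between the sorts for *Cacng3*, *Kcnf1*, *Kcnh3* and *Kcnj8* in the jejunum and for *Cacna2d2* in the ileum. In the colon they overlapped for *Cacna1b*, *Cacna1e*, *Cacnb1*, *Cacng3*, *Kcnd3* and *Kcnh2*. Jejunal *Kcnh3* had 4, 4 and 6 counts in Venus-positive and 16, 33 and 2 in Venus-negative libraries. Among the 5 of the jejunum was *Kcnj13*, of whose exons 49.1% overlap *Gigyf2* on the other strand, and since the strand setting of the counting is not given in the sources used here, the reads of such genes cannot be told apart. Of the genes described further down, such an overlap takes in 31.1% of the exons of *Kcnj3*, 8.01% of *Kcnk1*, 5.98% of *Kcnma1*, 5.76% of *Kcnk3*, 4.67% of *Cacna1d*, 4.33% and 3.8% of *Kcnn2*, 3.81% of *Cacna1a*, 2.96% of *Kcnq1*, and at most 1.72% of *Kcnd3*, *Cacna1h*, *Scn9a*, *Cacna2d2*, *Kcne3* and *Kcnh3*.

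A few genes supplied most channel reads. The 3 with most reads, *Kcne3*, *Kcnq1* and *Kcnk1*, held 52.2% of all reads on channel genes, and the first 10 held 82.0%. Corrected for exon length, the highest mean levels over the 24 libraries were those of *Kcne3* (33.7 CPM per kilobase of exon, RPKM), *Kcnk1* (11.4), *Kcnq1* (6.43), *Kcnk5* (5.45), *Kcnk6* (2.01), *Kcnn4* (1.83), *Cacnb3* (1.77), *Cacna1a* (1.09), *Kcnj2* (0.757) and *Scn2b* (0.695). *Kcne3* was the top gene per length in Venus-negative cells of all 4 regions, at 45.2 to 70.7 RPKM. In Venus-positive cells the leader differed by region, with *Kcnk1* first in the duodenum at 24.9 RPKM, *Kcnk5* first in the jejunum at 14.7 and in the ileum at 9.39, and *Kcne3* first in the colon at 27.2.

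The summed level of all 134 genes was lower in Venus-positive cells of 3 regions. It lay at 91.4 to 103 CPM against 232 to 247 in the jejunum, at 114 to 137 against 251 to 329 in the ileum, and at 209 to 226 against 261 to 326 in the colon. In the duodenum the ranges overlapped, at 216 to 233 and 213 to 254 CPM.

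For each region, Venus-positive were compared with Venus-negative cells by the quasi-likelihood test of edgeR, fitted to all genes and all 24 libraries, with Benjamini-Hochberg adjustment over the 15044 genes that passed the filter on low counts, 48 of them channel genes. At an adjusted p under 0.05, 30 of the 48 channel genes were called in at least 1 region. The share of all genes called in at least 1 region was not counted, so that this number has no background beside it. In the duodenum 6 of 48 were higher and 7 lower in Venus-positive cells, beside 8.88% and 8.08% of all genes tested. In the jejunum 3 were higher and 18 lower, beside 18.3% and 25.6% of all genes. The ileum gave 4 higher and 13 lower, beside 17.9% and 20.6%, and the colon 3 higher and 4 lower, beside 9.31% and 3.80%. Without colonic Venus-positive replicate 3 or Venus-negative replicate 2, the higher genes of the colon numbered 5. Single libraries moved the counts of lower genes, to 2 without duodenal Venus-positive replicate 1 (4 without its replicate 2 or Venus-negative replicate 3), 11 without jejunal Venus-positive replicate 1, and 8 and 7 without ileal Venus-positive replicates 2 and 3. In the colon it was 0 to 2 without any library other than Venus-negative replicate 3, and 7 with DESeq2. The median log2 fold change of the 48 channel genes was -0.94, -1.91, -0.83 and -0.55 in the duodenum, jejunum, ileum and colon, and that of all genes -0.16, -0.28, -0.27 and 0. Scaling by library size alone moved the median of all genes to 0.27 in the duodenum and 0.02 in the jejunum. All genes then split into 2267 higher and 350 lower in the duodenum, in place of 1336 and 1216, and into 3338 and 2943 in the jejunum, in place of 2749 and 3851. The channel genes split into 8 higher and 5 lower in the duodenum and 3 and 17 in the jejunum.

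**Figure D2:**
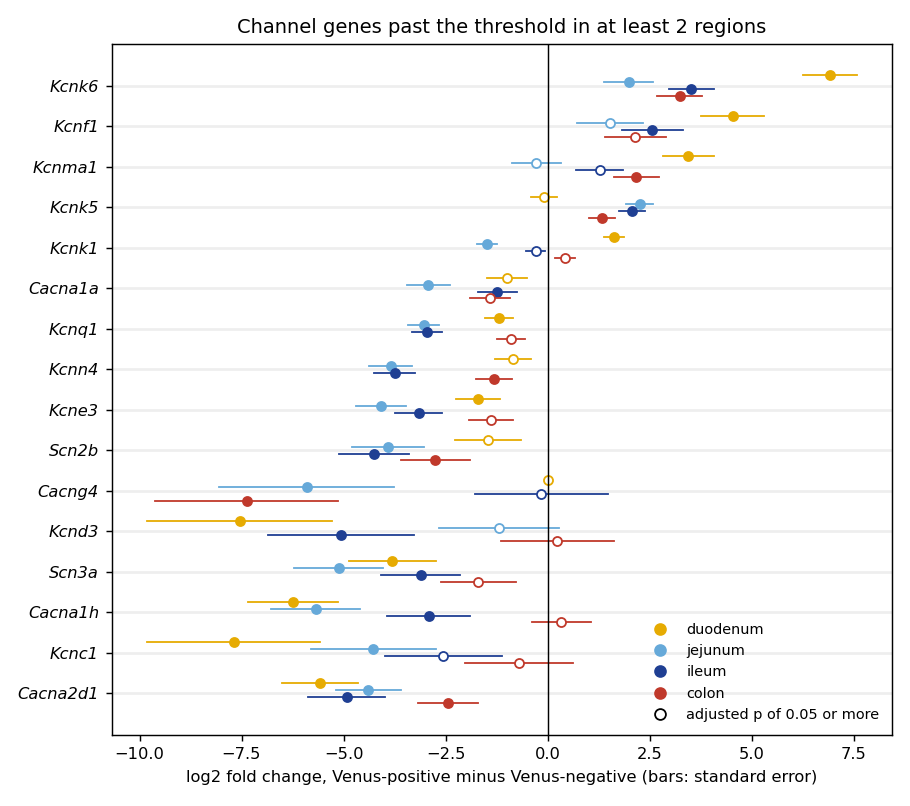
Log2 fold change of Venus-positive over Venus-negative cells (horizontal axis, with its standard error) for 16 channel genes past the threshold in at least 2 regions, coloured by region, with open symbols where the adjusted p was 0.05 or more. *Kcnk6* lies to the right of 0 in all 4 regions and *Cacna2d1* to the left, while *Kcnk1* changes side between the duodenum and the jejunum.

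The genes of the crypt's secretory potassium channels, *Kcnq1*, *Kcne3* and *Kcnn4*, were lower in Venus-positive cells of the jejunum and ileum. In the duodenum *Kcnq1* and *Kcne3* were lower by smaller amounts and *Kcnn4* did not pass the threshold. *Kcnq1*, the pore-forming gene of the basolateral cAMP-activated channel, was at 2.43, 5.24 and 5.32 CPM in Venus-positive and 41.9, 34.4 and 30.9 CPM in Venus-negative jejunal libraries (log2 fold change -3.04, SE 0.37, adjusted p = 2.87e-07 by edgeR). In the ileum it was at 11.4, 6.13 and 5.30 against 75.0, 50.9 and 50.8 CPM (-2.95, SE 0.37, adjusted p = 3.95e-07 by edgeR). All Venus-positive libraries lay below all Venus-negative ones in these and in the other two regions. In the duodenum the libraries held 5.74, 19.0 and 14.4 against 30.4, 27.4 and 31.5 CPM (-1.19, SE 0.35, adjusted p = 0.0181 by edgeR), and in the colon 26.7, 21.4 and 16.1 against 42.1, 39.6 and 37.5 CPM (-0.89, SE 0.34, adjusted p = 0.0849 by edgeR).

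*Kcne3*, the accessory subunit that holds the *Kcnq1* channel open in epithelia, was likewise lower in every Venus-positive library than in the Venus-negative libraries of its region. It was at 1.79, 1.06 and 11.7 CPM in Venus-positive and 60.9, 67.9 and 113 CPM in Venus-negative jejunal libraries (log2 fold change -4.07, SE 0.61, adjusted p = 4.17e-06 by edgeR). The ileum had 10.7, 8.53 and 12.9 against 53.8, 58.3 and 175 CPM (-3.16, SE 0.58, adjusted p = 7.06e-05 by edgeR). These were the widest gaps of the gene. In the duodenum the values were 22.8, 29.8 and 27.2 against 61.0, 96.3 and 103 CPM (-1.71, SE 0.55, adjusted p = 0.0296 by edgeR), and in the colon 29.7, 30.9 and 84.6 against 87.7, 127 and 163 CPM (-1.38, SE 0.54, adjusted p = 0.0908 by edgeR). The duodenal calls of *Kcnq1* and *Kcne3* were lost when libraries were scaled by size alone, with adjusted p of 0.18 and 0.104 by edgeR. That of *Kcnq1* was also lost without Venus-positive replicate 1 or Venus-negative replicate 3 (adjusted p up to 0.127), and that of *Kcne3* without any single duodenal library other than Venus-negative replicate 1 (adjusted p up to 0.107).

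*Kcnn4*, which encodes the intermediate-conductance calcium-activated channel, was the third gene of this group. Its jejunal levels were 0.192, 0.837 and 1.31 CPM in Venus-positive and 10.2, 12.4 and 11.1 CPM in Venus-negative cells (log2 fold change -3.85, SE 0.52, adjusted p = 1.15e-06 by edgeR). In the ileum they were 2.10, 1.86 and 0.441 against 23.0, 23.3 and 14.0 CPM (-3.74, SE 0.50, adjusted p = 1.11e-06 by edgeR). The sorts did not overlap in any region. The duodenum had 4.61, 7.39 and 10.7 against 11.2, 15.6 and 13.9 CPM (-0.85, SE 0.45, adjusted p = 0.194 by edgeR). The colon had 5.64, 6.87 and 4.97 against 7.31, 21.6 and 14.4 CPM (-1.31, SE 0.45, adjusted p = 0.0496 by edgeR), a call that was lost with scaling by library size alone (adjusted p = 0.0553) and without any of 5 of the 6 colonic libraries, Venus-negative replicate 1 being the exception (adjusted p up to 0.207).

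Stem and proliferating cell markers moved with these genes: 7 of 7 were lower in Venus-positive cells of the jejunum and ileum and 3 of 7 in the duodenum and colon. The summed level of the list was 33.5 to 290 against 1487 to 2398 CPM in the jejunum and 474 to 956 against 1649 to 2279 CPM in the duodenum. The part of the cell mixture in the levels of *Kcnq1*, *Kcne3* and *Kcnn4* was not tested. The sort difference of each of the 3 genes was smaller in the duodenum than in the mean of jejunum and ileum by the interaction term of the same edgeR fit. The difference was 1.81 for *Kcnq1* (SE 0.43, adjusted p = 0.0034), 2.95 for *Kcnn4* (SE 0.57, adjusted p = 0.000539) and 1.91 for *Kcne3* (SE 0.66, adjusted p = 0.0439) on the log2 scale. The interaction was past the threshold for 10 of 48 channel genes, beside 17.5% of all genes, and that of *Kcne3* was lost with DESeq2 or with only the compared libraries (adjusted p up to 0.078) and without any of 12 of the 18 libraries (adjusted p up to 0.121).

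*Kcne3* and *Kcnn4* were both called lower in Venus-positive cells of the jejunum and ileum. *Kcnk5* was higher in Venus-positive cells of 3 regions and *Cacna2d1* lower in those of all 4. The promoter windows of these genes are set here side by side. They run from 250 bases before to 50 bases after the start of the transcript in RefSeq's annotation of GRCm38.p6, which held 99 of the 134 genes, and are written 5′ to 3′ on the strand of the gene. Capitals mark matches, on either strand, to 6 motifs. These were the core promoter box spelled TATAAA, the box of the factor NF-Y spelled CCAAT, the GC box spelled GGGCGG, a site of the GATA factors spelled AGATAA, an E-box spelled CAGCTG and the core of the HNF4 site spelled CAAAGTC.
Kcne3, upstream start, chr7:100176420-100176719, plus strand: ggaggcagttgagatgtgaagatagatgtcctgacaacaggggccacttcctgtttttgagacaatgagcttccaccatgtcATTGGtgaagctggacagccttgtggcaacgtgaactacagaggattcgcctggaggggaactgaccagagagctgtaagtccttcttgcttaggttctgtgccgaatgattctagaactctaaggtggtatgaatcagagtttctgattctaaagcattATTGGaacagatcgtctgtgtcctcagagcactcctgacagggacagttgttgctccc
Kcne3, downstream start, chr7:100178433-100178732, plus strand: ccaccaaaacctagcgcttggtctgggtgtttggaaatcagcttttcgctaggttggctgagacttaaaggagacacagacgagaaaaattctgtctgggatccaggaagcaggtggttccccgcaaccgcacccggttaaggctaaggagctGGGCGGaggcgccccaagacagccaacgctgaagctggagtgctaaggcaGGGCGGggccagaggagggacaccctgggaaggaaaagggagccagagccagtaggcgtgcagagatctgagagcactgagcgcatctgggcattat
Kcnn4, chr7:24370013-24370312, plus strand: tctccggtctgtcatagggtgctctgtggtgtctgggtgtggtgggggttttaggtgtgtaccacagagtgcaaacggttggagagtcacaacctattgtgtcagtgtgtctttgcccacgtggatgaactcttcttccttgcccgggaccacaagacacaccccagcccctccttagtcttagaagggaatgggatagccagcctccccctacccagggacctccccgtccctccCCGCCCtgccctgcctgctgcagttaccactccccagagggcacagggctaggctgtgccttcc
Kcnk5, chr14:20181733-20182032, minus strand: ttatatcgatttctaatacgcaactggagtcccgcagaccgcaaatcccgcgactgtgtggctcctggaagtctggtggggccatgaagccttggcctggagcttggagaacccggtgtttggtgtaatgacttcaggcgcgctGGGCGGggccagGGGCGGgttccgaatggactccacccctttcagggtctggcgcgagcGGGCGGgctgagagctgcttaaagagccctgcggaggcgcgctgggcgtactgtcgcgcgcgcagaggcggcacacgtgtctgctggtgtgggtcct
Cacna2d1, chr5:15934441-15934740, plus strand: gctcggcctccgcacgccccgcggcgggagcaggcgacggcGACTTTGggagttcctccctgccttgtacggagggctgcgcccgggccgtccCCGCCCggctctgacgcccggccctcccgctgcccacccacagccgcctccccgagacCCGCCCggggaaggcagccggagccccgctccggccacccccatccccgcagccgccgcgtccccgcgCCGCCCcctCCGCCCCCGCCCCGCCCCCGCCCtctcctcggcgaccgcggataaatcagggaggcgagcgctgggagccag
Each window other than the upstream one of *Kcne3* held a GC box, which 35.7% of all 32851 windows and 45.2% of the 135 windows of channel genes hold. *Cacna2d1* had 7 and *Kcnk5* had 3, and in *Cacna2d1* a pair of them shares a base. The upstream window of *Kcne3* had 2 CCAAT boxes (37.4% of all windows hold one), and the window of *Cacna2d1* had 1 match to CAAAGTC (4.44% of all windows). None of the 5 windows held TATAAA (13.6% of all windows), AGATAA (11.2%) or CAGCTG (16.3%). The windows differed in base composition, from 48.3% G and C with 4 CpG pairs in the upstream window of *Kcne3* to 80.0% with 42 in *Cacna2d1*, beside a median of 52.7% and 7 over all windows. These matches describe the letters only, in genes that were picked for display outside the rule for named genes.

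*Kcnk6* and *Kcnk5*, the only channel genes called higher in at least 3 regions, belong to the tandem pore domain family. Of its 7 tested genes, 2 were called higher in each region, and 0, 2, 1 and 0 lower from duodenum to colon. Over all genes tested, 8.88%, 18.3%, 17.9% and 9.31% were higher and 8.08%, 25.6%, 20.6% and 3.80% lower in the same order. *Kcnk6*, which encodes a background channel also found on lysosomes, was higher in Venus-positive cells of all 4 regions without overlap. In the duodenum it was at 46.0, 46.0 and 29.1 CPM in Venus-positive and at 0.702, 0 and 0.288 CPM in Venus-negative libraries (log2 fold change 6.92, SE 0.66, adjusted p = 7.68e-09 by edgeR). The ileum had 11, 10.0 and 4.71 against 0.701, 0.846 and 0.665 CPM (3.52, SE 0.55, adjusted p = 9.76e-06 by edgeR). The duodenal Venus-positive libraries held the highest levels of the gene in the series. In the colon the values were 10.5, 14.8 and 12.9 against 0.360, 1.98 and 1.53 CPM (3.24, SE 0.55, adjusted p = 0.000153 by edgeR). In the jejunum they were 1.41, 1.45 and 3.28 against 0.304, 0.901 and 0.302 CPM (1.99, SE 0.60, adjusted p = 0.00775 by edgeR), a call lost with only the jejunal libraries (adjusted p = 0.0558) and without Venus-positive replicate 3 (adjusted p = 0.0599). The duodenal difference exceeded that of the jejunum and ileum by 4.17 on the log2 scale (SE 0.74, adjusted p = 0.000231, interaction in edgeR).

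*Kcnk5*, whose channel is activated by alkaline pH and cell swelling, was higher in the jejunum, ileum and colon and not in the duodenum. The jejunum had 59.4, 44.7 and 46.2 CPM in Venus-positive and 11.3, 9.26 and 10.9 CPM in Venus-negative libraries (log2 fold change 2.26, SE 0.32, adjusted p = 2.28e-06 by edgeR). The ileum had 17.9, 43.9 and 34.1 against 7.63, 9.03 and 6.21 CPM (2.06, SE 0.32, adjusted p = 9.28e-06 by edgeR). In these regions and in the colon the sorts did not overlap. The colon had 23.7, 28.9 and 13.6 against 10.1, 8.28 and 7.82 CPM (1.34, SE 0.32, adjusted p = 0.00478 by edgeR), which was lost without Venus-positive replicate 2 (adjusted p = 0.0706). In the duodenum 7.48, 10.8 and 6.98 CPM stood against 10.5, 9.86 and 6.70 CPM (-0.09, SE 0.32, adjusted p = 0.881 by edgeR), and the duodenal difference was below that of the jejunum and ileum by 2.25 on the log2 scale (-2.25, SE 0.39, adjusted p = 0.00019, interaction in edgeR). *Kcnk5* was the only gene among the 10 with a called interaction whose duodenal difference was the lower.

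*Kcnk1*, another background channel gene, changed in opposite directions in neighbouring regions. It was at 58.3, 46.3 and 62.2 CPM in Venus-positive and 16.5, 18.1 and 19.6 CPM in Venus-negative duodenal libraries (log2 fold change 1.62, SE 0.25, adjusted p = 2.32e-05 by edgeR). In the jejunum it was at 5.43, 6.36 and 9.48 against 18.9, 21.8 and 18.8 CPM (-1.49, SE 0.25, adjusted p = 2.06e-05 by edgeR). Venus-negative levels stayed between 16.5 and 30.8 CPM in all regions, and it was the Venus-positive levels that spread from 5.43 to 62.2 CPM. The ileum gave -0.29 (SE 0.24, adjusted p = 0.354) and the colon 0.42 (SE 0.24, adjusted p = 0.269 by edgeR). The duodenal difference exceeded that of the jejunum and ileum by 2.51 (SE 0.30, adjusted p = 2.57e-06, interaction in edgeR). Both directions were kept in all 7 alternatives and without each library in turn.

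Cell type markers had interactions of the same kind. The sort difference of the duodenum exceeded that of the jejunum and ileum for 7 of 7 goblet, 4 of 5 Paneth, 5 of 7 stem and 2 of 6 tuft cell markers. It was the lower one for 8 of 9 enterocyte and 2 of 15 enteroendocrine markers. The summed goblet level was 52164 to 58942 CPM in duodenal Venus-positive cells, against 1802 to 4637 in jejunal, 4083 to 9476 in ileal and 2551 to 3666 in colonic ones. The part of these cells in the regional differences of *Kcnk6*, *Kcnk1*, *Kcnk5*, *Kcnma1* and the other genes with this interaction was not tested.

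**Figure D3:**
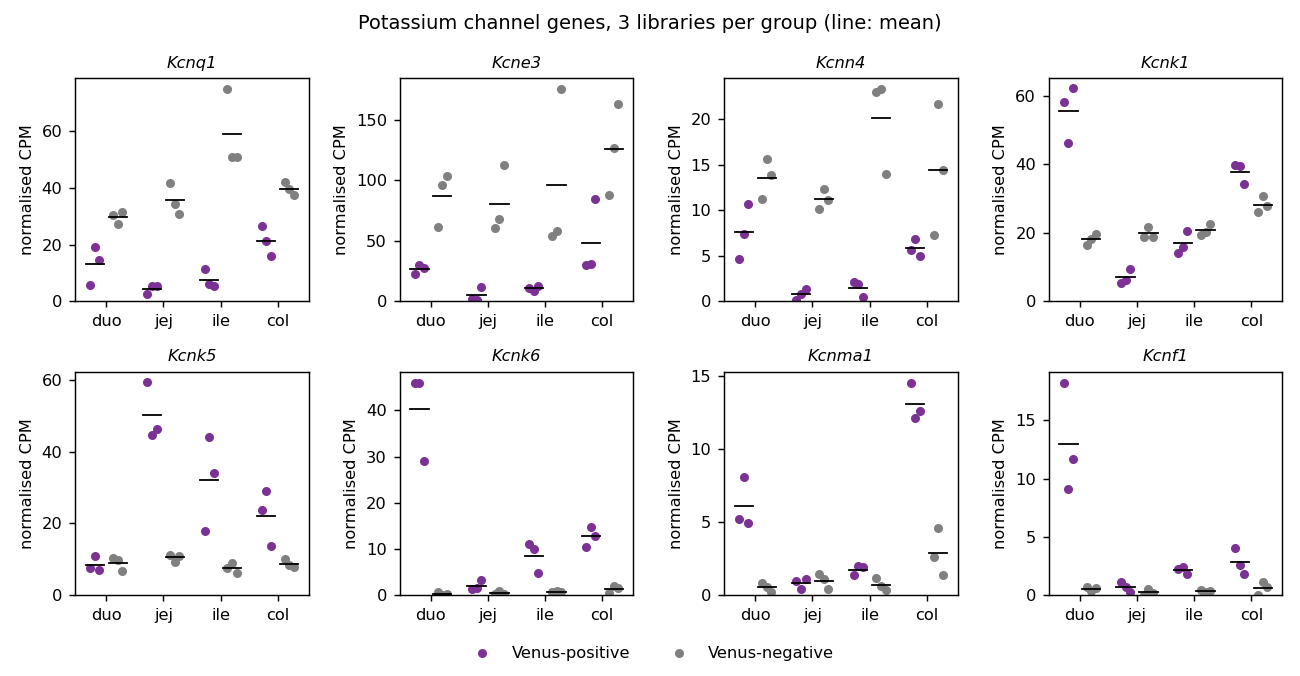
Normalised CPM of 8 potassium channel genes in each library (points, with the mean as a line), by region on the horizontal axis, Venus-positive in purple and Venus-negative in grey, each panel with its own scale from 0. *Kcnq1*, *Kcne3* and *Kcnn4* are low in jejunal and ileal Venus-positive cells, *Kcnk1*, *Kcnk6* and *Kcnf1* peak in those of the duodenum, *Kcnk5* in those of the jejunum and *Kcnma1* in those of the colon.

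Of the other tandem pore domain genes, *Kcnk10*, which encodes a mechanically and lipid-gated channel, was lower in Venus-positive ileal cells, at 0.162, 0.661 and 0 against 1.53, 1.94 and 1.61 CPM (log2 fold change -2.55, SE 0.64, adjusted p = 0.00215 by edgeR). *Kcnk16*, a channel gene known from pancreatic islets, had no count in Venus-positive and 2, 4 and 11 counts in Venus-negative jejunal libraries, and was at least 1.86-fold lower. Its call (adjusted p = 0.0318 by edgeR) was lost with DESeq2, without the filter (adjusted p up to 0.0686) and without any of 4 of the 6 libraries (adjusted p up to 0.0997). Of the 14 genes of this family 7 were tested, and 6 were detected in some group.

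The calcium-activated channel gene *Kcnma1*, whose product is the large-conductance BK channel, was called higher in Venus-positive cells of the duodenum and colon. The duodenum had 5.22, 8.05 and 4.95 CPM in Venus-positive and 0.842, 0.584 and 0.216 CPM in Venus-negative libraries (log2 fold change 3.45, SE 0.62, adjusted p = 0.000206 by edgeR). The colon had 14.5, 12.1 and 12.6 against 2.64, 4.61 and 1.36 CPM (2.18, SE 0.56, adjusted p = 0.00824 by edgeR), lost without Venus-negative replicate 3 (adjusted p = 0.0549). The groups did not overlap in either region. In the jejunum 0.959, 0.390 and 1.09 CPM overlapped with 1.44, 1.09 and 0.423 CPM (-0.28, SE 0.60, adjusted p = 0.739 by edgeR). The ileum did not overlap either, at 1.35, 1.98 and 1.91 against 1.16, 0.635 and 0.333 CPM, but was not called (1.28, SE 0.57, adjusted p = 0.077 by edgeR). The duodenal difference was larger than that of the jejunum and ileum by 2.95 (SE 0.73, adjusted p = 0.0049, interaction in edgeR). *Lrrc26*, the auxiliary subunit that lets this channel open near the resting potential, was also higher in the duodenum (5.63, SE 0.51, adjusted p = 2.87e-09), the ileum (2.41, SE 0.44, adjusted p = 7.76e-05) and the colon (1.47, SE 0.44, adjusted p = 0.0232), with 0.39 in the jejunum (SE 0.44, adjusted p = 0.491 by edgeR).

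*Kcnu1*, a relative of *Kcnma1* known from sperm, had 41, 35 and 2 counts in Venus-positive and none in Venus-negative jejunal libraries. It was at least 7.84-fold higher there (adjusted p = 0.00278 by edgeR), with 2 counts in 1 library still under the floor. *Kcnn2*, a small-conductance calcium-activated channel gene, had no count in Venus-positive and 13, 21 and 0 counts in Venus-negative ileal libraries. The call of *Kcnn2* (at least 2.27-fold lower, adjusted p = 0.0455 by edgeR) was lost without the filter (adjusted p = 0.0932) and without any of 5 of the 6 libraries (adjusted p up to 0.12).

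Among voltage-gated potassium channel pore genes, *Kcnf1* was higher in Venus-positive cells of the duodenum and ileum. It encodes a subunit that forms no channel by itself and modifies those of the *Kcnb* family. The duodenum had 18.2, 9.11 and 11.7 CPM in Venus-positive and 0.702, 0.389 and 0.577 CPM in Venus-negative libraries (log2 fold change 4.53, SE 0.78, adjusted p = 0.000135 by edgeR). The ileum had 2.26, 2.40 and 1.84 against 0.413, 0.282 and 0.388 CPM (2.57, SE 0.74, adjusted p = 0.00667 by edgeR). Both comparisons were free of overlap. In the colon 4.02, 2.62 and 1.81 CPM stood against 0, 1.10 and 0.680 CPM (2.15, SE 0.74, adjusted p = 0.0511 by edgeR), and in the jejunum the change was 1.54 (SE 0.81, adjusted p = 0.125 by edgeR). *Kcnb2* itself, the delayed rectifier gene with which *Kcnf1* can assemble, was lower in the jejunum at 0.511, 0 and 0.146 against 3.19, 2.83 and 0.726 CPM (-3.32, SE 1.27, adjusted p = 0.0337 by edgeR). That call was lost with scaling by library size alone (adjusted p = 0.0633) and without any of 4 of the 6 libraries (adjusted p up to 0.129).

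Of the 15 tested genes of this family, 1, 0, 2 and 0 were higher and 3, 4, 4 and 0 lower in Venus-positive cells of the duodenum, jejunum, ileum and colon. Among all genes tested, 8.88%, 18.3%, 17.9% and 9.31% were higher and 8.08%, 25.6%, 20.6% and 3.80% lower in the same order. *Kcnh8*, of the EAG-like family, was lower in the ileum, with 3, 1 and 0 counts against 77, 49 and 30, or at least 11.7-fold (adjusted p = 0.00226 by edgeR), a call kept in all 7 alternatives and without each library in turn. The genes of the fast-spiking and transient channels were near the floor. *Kcnc1* had no count in Venus-positive and 5, 21 and 47 counts in Venus-negative duodenal libraries, at least 5.72-fold lower (adjusted p = 0.0128 by edgeR), and at least 6.81-fold lower in the jejunum (adjusted p = 0.0248 by edgeR). *Kcnd3* had none against 16, 38 and 14 counts in the duodenum, at least 5.16-fold lower (adjusted p = 0.0217 by edgeR), and was at least 4.93-fold lower in the ileum (adjusted p = 0.0262 by edgeR). These counts are small, and leaving out single libraries lost the calls of *Kcnc1* (2 of 6 libraries in the duodenum, adjusted p up to 0.0531, and 3 of 6 in the jejunum, up to 0.0941) and of *Kcnd3* (4 of 6 in the duodenum, up to 0.0754, and 3 of 6 in the ileum, up to 0.0922). *Kcnc4*, with 2, 14 and 6 counts against none in the ileum, was at least 3.51-fold higher (adjusted p = 0.0459 by edgeR), lost without any of 5 of the 6 libraries (adjusted p up to 0.117).

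Of 5 tested inward rectifier genes, 2 were lower in Venus-positive cells of the jejunum, beside 25.6% of all genes tested. None was called in the other regions. *Kcnj2*, a strong inward rectifier that holds the resting potential, was at 22.7, 9.36 and 13.3 CPM in Venus-positive and 6.95, 5.38 and 4.18 CPM in Venus-negative duodenal libraries, without overlap (log2 fold change 1.46, SE 0.59, adjusted p = 0.0883 by edgeR). *Kcnj8*, a pore gene of ATP-sensitive channels, was at 1.18, 4.03 and 4.63 against 0.330, 0.282 and 0.388 CPM in the ileum, without overlap (3.27, SE 1.41, adjusted p = 0.0661 by edgeR). *Kcnj13* did not overlap in the jejunum (2.72, SE 1.46, adjusted p = 0.135 by edgeR), with the limit on its reads given above. *Kcnj11*, the pore of the ATP-sensitive channel of endocrine cells, had no count in Venus-positive and 2, 5 and 15 counts in Venus-negative jejunal libraries, at least 2.39-fold lower (adjusted p = 0.0309 by edgeR). Its call was lost without any of 4 of the 6 libraries (adjusted p up to 0.0936). *Abcc8*, the sulfonylurea receptor that assembles with it, was lower in the duodenum (-8.49, SE 2.02, adjusted p = 0.00469), jejunum (-3.32, SE 1.17, adjusted p = 0.0228) and ileum (-3.31, SE 1.21, adjusted p = 0.0318 by edgeR). Its duodenal Venus-positive libraries were all at or under the floor, so that the fitted -8.49 is no bound. *Kcnj3*, a G protein-gated rectifier, had 0, 0 and 4 counts against 40, 29 and 9 in the jejunum (-4.18, SE 1.52, adjusted p = 0.0274 by edgeR), lost without the filter (adjusted p = 0.0661) and without any of 4 of the 6 libraries (adjusted p up to 0.12). *Kcnj16* reached more than 3 counts in 1 library only and was not tested.

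Among calcium channel genes, *Cacna2d1* was lower in Venus-positive cells of all 4 regions without overlap. It encodes an alpha2delta subunit that brings pore subunits to the membrane and binds gabapentin. In the duodenum it was at 0, 0 and 0.450 CPM in Venus-positive and 5.40, 8.36 and 6.78 CPM in Venus-negative libraries (log2 fold change -5.58, SE 0.92, adjusted p = 7.44e-05 by edgeR). In the jejunum it was at 0.256, 0.112 and 0.656 against 10.5, 7.72 and 3.09 CPM (-4.39, SE 0.80, adjusted p = 5.37e-05 by edgeR). Ileal Venus-positive libraries were all at or under the floor, with 2, 1 and 0 counts against 42, 76 and 32, and the gene was at least 11-fold lower there (adjusted p = 0.000123 by edgeR). In the colon 1.0, 1.13 and 0.194 CPM stood against 5.15, 4.61 and 2.89 CPM (-2.44, SE 0.73, adjusted p = 0.0238 by edgeR), a call lost without any of 5 of the 6 libraries, Venus-negative replicate 3 being the exception (adjusted p up to 0.111). *Cacna2d2*, the related gene, went the other way in the duodenum, with 24, 82 and 6 counts against 2, 1 and 0, or at least 15.9-fold higher (adjusted p = 0.00195 by edgeR).

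The pore genes differed by type. *Cacna1a*, the P/Q-type gene and the most abundant per length, was lower in the jejunum at 3.13, 4.41 and 0.875 against 31.1, 26.1 and 7.56 CPM (log2 fold change -2.92, SE 0.53, adjusted p = 4.65e-05 by edgeR). It was lower in the ileum at 14.0, 6.97 and 5.0 against 25.6, 21.2 and 14.2 CPM (-1.23, SE 0.49, adjusted p = 0.046 by edgeR), a call lost with DESeq2 and with DESeq2's size factors (adjusted p up to 0.0536) and without any of 4 of the 6 libraries (adjusted p up to 0.184). *Cacna1a* did not overlap between the sorts in any region. *Cacna1b*, the N-type gene, had 48, 64 and 13 counts in Venus-positive and 0, 0 and 1 in Venus-negative duodenal libraries, at least 18.7-fold higher (adjusted p = 0.00156 by edgeR), while the other 3 regions overlapped. The L-type gene *Cacna1c* had 1, 0 and 1 counts against 75, 26 and 21 in the jejunum, at least 14.9-fold lower (adjusted p = 0.000575 by edgeR). It was not called in the duodenum (-1.26, SE 1.05, adjusted p = 0.438), the ileum (-2.34, SE 1.04, adjusted p = 0.0767) or the colon, with 2, 17 and 13 counts against 29, 9 and 4 (-0.98, SE 1.0, adjusted p = 0.579 by edgeR). *Cacna1d*, the other L-type gene of endocrine cells, did not pass the threshold in any region, with log2 fold changes of -2.44 (SE 1.5), -2.86 (SE 1.55) and -0.45 (SE 1.40) in the small intestine.

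*Cacna1h*, a T-type gene that opens at low voltage, was near the floor in Venus-positive cells of the small intestine and not in those of the colon. Its Venus-positive libraries had 1, 1 and 0 counts in the duodenum, 1, 0 and 1 in the jejunum and 4, 0 and 0 in the ileum, but 82, 119 and 93 in the colon. Venus-negative libraries had 74, 99 and 66 counts, 56, 48 and 9, 32, 14 and 2, and 82, 69 and 20 in the same order of regions. It was at least 18.4-fold lower in Venus-positive cells of the duodenum (adjusted p = 0.000179 by edgeR) and at least 13.6-fold lower in those of the jejunum (adjusted p = 0.0001 by edgeR). In the ileum the sorts overlapped (-2.91, SE 1.01, adjusted p = 0.0229 by edgeR), and that call was lost without Venus-positive replicates 2 or 3 or Venus-negative replicate 1 (adjusted p up to 0.18). In the colon the levels overlapped at 6.34, 8.42 and 6.0 against 9.83, 5.05 and 1.70 CPM (0.33, SE 0.72, adjusted p = 0.825 by edgeR). The colonic sort difference exceeded the mean of the small intestine by a fitted 5.28 on the log2 scale (SE 1.0, adjusted p = 0.00246, interaction in edgeR), which is no bound because groups near 0 counts enter it. In the same interaction 7 of 15 enteroendocrine markers were relatively higher in the colon and 6 of 7 goblet and 4 of 5 Paneth cell markers lower, and their part was not tested. *Cacna1h* was 1 of 2 channel genes of 48 with such an interaction, beside 4.13% of all genes. The second was *Kcnq1* (1.5, SE 0.40, adjusted p = 0.0279), lost with scaling by library size alone (adjusted p = 0.142) and without any of 6 of the 24 libraries (adjusted p up to 0.0937).

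*Cacnb3*, a beta subunit gene that was detected in all 8 groups, was not called between the sorts, with log2 fold changes of 0.51 (SE 0.39), 0.42 (SE 0.38), 0.56 (SE 0.37) and 0.84 (SE 0.37) from duodenum to colon. The gamma subunit gene *Cacng4* was detected only in Venus-negative colonic cells, at 21, 15 and 6 counts against none, or at least 6.47-fold lower in Venus-positive cells (adjusted p = 0.0313 by edgeR). It was also called in the jejunum with 4, 18 and 0 counts against none (at least 2.53-fold lower, adjusted p = 0.03 by edgeR). The jejunal call was lost with DESeq2 (adjusted p = 0.0577) and without any of 4 of the 6 libraries (adjusted p up to 0.141), the colonic one without any of 5 of the 6 (adjusted p up to 0.127).

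Of 14 sodium channel genes 3 were tested. None of the 3 was called higher in Venus-positive cells of any region, beside 8.88% to 18.3% of all genes tested. *Scn3a*, a pore gene of neurons and enteroendocrine cells, was at 0.205, 0 and 0.450 CPM in Venus-positive and 3.30, 2.59 and 3.03 CPM in Venus-negative duodenal libraries (log2 fold change -3.80, SE 1.07, adjusted p = 0.0136 by edgeR). In the jejunum it had 0, 3 and 3 counts against 74, 73 and 63, at least 24.4-fold lower (adjusted p = 0.000342 by edgeR). No Venus-positive library of the small intestine reached a Venus-negative one. The ileum had 0.646, 0 and 0.147 against 2.81, 2.61 and 1.83 CPM (-3.11, SE 0.98, adjusted p = 0.0122 by edgeR), while in the colon the sorts overlapped (-1.70, SE 0.92, adjusted p = 0.245). The duodenal call was lost without Venus-positive replicate 1 or 2 (adjusted p up to 0.0646) and the ileal call without Venus-positive replicate 2 or 3 (adjusted p up to 0.0594).

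*Scn2b*, a beta subunit gene that modulates gating and surface expression, was lower in the jejunum, ileum and colon. It was at 0.0639, 0.390 and 0.583 against 5.54, 6.43 and 3.87 CPM in the jejunum (log2 fold change -3.92, SE 0.88, adjusted p = 0.000638 by edgeR). The ileum had 0.646, 0.0601 and 0.956 against 13.5, 8.50 and 9.65 CPM (-4.25, SE 0.86, adjusted p = 0.00025 by edgeR). Neither region had an overlap, nor had the colon, at 1.24, 0.566 and 0 against 1.92, 6.30 and 3.66 CPM (-2.75, SE 0.84, adjusted p = 0.0275 by edgeR). In the duodenum the sorts overlapped (-1.46, SE 0.80, adjusted p = 0.214 by edgeR). The colonic call was lost with only the colonic libraries (adjusted p = 0.0672) and without Venus-positive replicates 2 or 3 or Venus-negative replicate 2 (adjusted p up to 0.105). *Scn8a* had no count in Venus-positive and 7, 8 and 1 counts in Venus-negative jejunal libraries, at least 1.91-fold lower (adjusted p = 0.0247 by edgeR), lost without the filter (adjusted p = 0.0549) and without any of 5 of the 6 libraries (adjusted p up to 0.0834). *Scn9a*, a pore gene of pain-sensing neurons, had at most 7 counts in any library and was not tested.

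**Figure D4:**
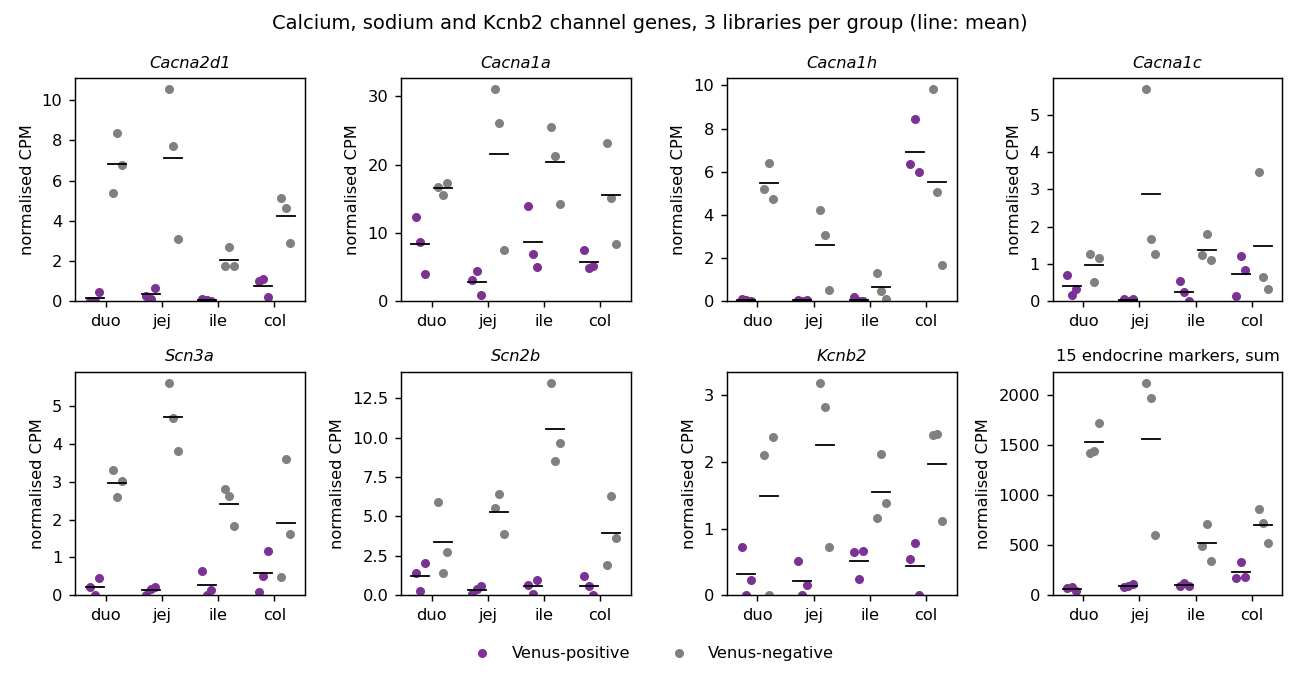
Normalised CPM of 7 calcium, sodium and potassium channel genes and the summed level of 15 enteroendocrine markers in each library (points, with the mean as a line), by region, Venus-positive in purple and Venus-negative in grey, each panel with its own scale from 0. *Cacna2d1*, *Cacna1a*, *Scn3a* and *Scn2b* have lower means in Venus-positive cells of every region, as has the marker sum, whereas *Cacna1h* overlaps between the sorts in the colon.

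Enteroendocrine markers moved with these genes. Of 15, 14 were lower in duodenal, 15 in jejunal, 12 in ileal and 7 in colonic Venus-positive cells, and 1 was higher in the colon. Their summed level was 38.7 to 81.8 against 1421 to 1720 CPM in the duodenum, 81.0 to 112 against 600 to 2120 in the jejunum, 95.2 to 125 against 340 to 714 in the ileum and 169 to 335 against 525 to 862 in the colon. In Venus-positive duodenal cells 4 of the 15 (*Neurod1*, *Pyy*, *Scg5*, *Insm1*) were at or under the floor. Within Venus-negative jejunal cells, the library with the lowest marker sum, replicate 3 (600 against 2120 and 1968 CPM), had the lowest level of 14 of the 18 channel genes that were lower in Venus-positive jejunal cells, among them *Cacna1a*, *Cacna1c*, *Cacna1h*, *Cacna2d1*, *Scn3a* and *Kcnb2*, but also *Kcnk1* and *Kcnq1*. It had the highest level of 3 (*Kcne3*, *Kcnj11*, *Kcnk16*). Over the 3851 genes called lower in the jejunum it was the lowest for 34.4% and the highest for 39.3%. This library also had the lowest mitochondrial share of its group, 61.2% against 78.8% and 76.9%, the lowest tuft cell sum (14.4 against 28.5 and 53.4 CPM) and the highest stem cell sum (2398 against 1746 and 1487 CPM). In Venus-negative colonic cells replicate 1, with the highest marker sum (862 CPM), had the highest *Cacna1a*, *Cacna1c*, *Cacna1h* and *Cacna2d1* of the group and the lowest *Scn2b* and *Scn3a*. Duodenal Venus-negative replicate 3, with the highest sum there (1720 CPM), had the highest *Cacna1a* and the lowest *Cacna1h*. It lay between the other libraries for *Cacna1c*, *Cacna2d1*, *Scn2b* and *Scn3a*. Ileal Venus-negative replicate 2 (714 CPM) had the highest *Cacna1c* and *Cacna2d1* and the lowest *Scn2b*. It lay between the others for *Cacna1a*, *Cacna1h* and *Scn3a*. Tuft cell markers fell as well, by 3, 6, 6 and 1 of 6 tested in the duodenum, jejunum, ileum and colon. Neuronal marker sums were 0.657 to 6.37 CPM over all libraries. The part of these cells in the levels of the calcium and sodium channel genes was not tested.

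A list of 29 partner genes of ion transport and excitability, 21 of them tested, showed changes in both directions. In Venus-positive cells 3, 6, 8 and 6 were higher and 5, 6, 7 and 2 lower in the duodenum, jejunum, ileum and colon. The shares of all genes tested were 8.88%, 18.3%, 17.9% and 9.31% higher and 8.08%, 25.6%, 20.6% and 3.80% lower. The chloride channel gene *Cftr* was lower in all 4 regions, with log2 fold changes of -1.33 (SE 0.37, adjusted p = 0.0136), -2.06 (SE 0.38, adjusted p = 6.34e-05), -1.01 (SE 0.37, adjusted p = 0.0303) and -1.38 (SE 0.37, adjusted p = 0.0118 by edgeR). *Slc12a2*, the basolateral cotransporter that loads chloride for secretion, was lower in the jejunum (-3.57, SE 0.42, adjusted p = 2.05e-07), the ileum (-3.28, SE 0.42, adjusted p = 5.72e-07) and the colon (-1.64, SE 0.39, adjusted p = 0.00481 by edgeR). Higher in all 4 regions were *Scnn1a*, a subunit of the epithelial sodium channel (1.70 to 5.41), and *Trpm4*, a calcium-activated cation channel (1.27 to 1.82). *Trpa1*, the irritant sensor of enterochromaffin cells, was lower in the 3 small intestinal regions (-6.54 to -5.13). All Venus-positive libraries of these regions were at or under the floor for *Trpa1*, so that its fitted sizes are no bounds. These 5 genes, with *Lrrc26* and *Abcc8*, were chosen from the list for naming after their values were seen.

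Between regions, colonic Venus-positive cells were compared with the mean of the 3 small intestinal ones. Of 48 channel genes 15 were higher and 2 lower in the colon, beside 15.9% and 10.3% of all genes. With scaling by library size alone the median of all genes moved from 0.15 to -0.23 and their split from 2395 higher and 1549 lower to 1361 and 2464, while 12 channel genes were higher and 2 lower. Among cell type markers, 7 of 15 enteroendocrine ones were higher and 5 lower in colonic Venus-positive cells. Tuft cell markers were higher for 3 of 6, and stem cell markers higher for 3 and lower for 1 of 7. Paneth cell markers were lower for 5 of 5. Of 7 goblet cell markers 4 were lower and 1 higher, and of 9 enterocyte markers 7 were lower and 1 higher. The part of these cells in the regional differences was not tested. *Cacna1h* led, with 6.34, 8.42 and 6.0 CPM in the colon and 0 to 0.215 CPM in the small intestine (fitted log2 difference 6.66, SE 0.68, adjusted p = 6.6e-09 by edgeR). *Kcnma1* was at 14.5, 12.1 and 12.6 CPM in the colon and 0.390 to 8.05 CPM elsewhere (2.67, SE 0.40, adjusted p = 5.83e-06 by edgeR). *Kcnh3*, of the same EAG-like family as *Kcnh8*, was at 5.64, 3.96 and 4.00 CPM against 0.147 to 0.903 CPM (3.46, SE 0.67, adjusted p = 0.000199 by edgeR). None of these 3 genes overlapped between the colonic and small intestinal Venus-positive libraries. *Cacna1e*, the R-type pore gene, had 9, 33 and 33 counts in the colon and at most 5 in any small intestinal Venus-positive library (5.06, SE 1.18, adjusted p = 0.00162 by edgeR). *Kcnh8* (3.12, SE 0.76, adjusted p = 0.00242) and *Kcnd3* (4.32, SE 1.26, adjusted p = 0.0111 by edgeR) were also higher. Small intestinal Venus-positive groups at the floor enter the sizes of *Cacna1h*, *Cacna1e*, *Kcnh8* and *Kcnd3*, so that these fitted sizes are no bounds.

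The secretory genes were higher in colonic than in small intestinal Venus-positive cells, *Kcne3* by 2.13 (SE 0.40, adjusted p = 0.000162), *Kcnq1* by 1.5 (SE 0.26, adjusted p = 6.3e-05) and *Kcnn4* by 1.5 (SE 0.36, adjusted p = 0.00218 by edgeR). In Venus-negative cells the same comparison gave 0.52 (SE 0.42, adjusted p = 0.487), 0 (SE 0.28, adjusted p = 1) and 0 (SE 0.36, adjusted p = 1 by edgeR). *Kcnk1* (1.01, SE 0.19, adjusted p = 0.000126), *Cacnb3* (1.0, SE 0.29, adjusted p = 0.00938) and *Cacna2d1* (2.38, SE 0.66, adjusted p = 0.00768 by edgeR) were higher as well. The fitted size of *Cacna2d1* is no bound, because its ileal Venus-positive libraries were at or under the floor. The calls of *Cacnb3* and *Cacna2d1* were lost without colonic Venus-positive replicate 2 (adjusted p = 0.0547 and 0.0698), and that of *Cacnb3* with scaling by library size alone (adjusted p = 0.154). *Kcnn2*, *Kcnc1* and *Kcnk3* made up the 15, each at 22 counts or fewer in every Venus-positive library of the colon. *Kcnc1* and *Kcnk3* were lost with scaling by library size alone and with the i5 index as covariate (adjusted p up to 0.0695 and 0.0659) and without 9 and 8 of 12 libraries.

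*Kcnj2* was lower in colonic Venus-positive cells, with 2, 2 and 1 counts in the colon and 10 to 222 counts in each small intestinal library (fitted log2 difference -5.11, SE 0.78, adjusted p = 7.37e-06 by edgeR). It was also lower in Venus-negative cells of the colon, at 0.120, 0.293 and 1.11 CPM against 1.77 to 6.95 CPM (-2.87, SE 0.64, adjusted p = 0.00181 by edgeR). *Kcnk10* was the second gene lower in both sorts, at -2.23 (SE 0.58, adjusted p = 0.00435) in Venus-positive and -1.66 (SE 0.51, adjusted p = 0.0285 by edgeR) in Venus-negative cells. The latter was lost with DESeq2's size factors and without the filter (adjusted p up to 0.0565) and without jejunal Venus-negative replicate 1 or colonic replicate 2 or 3 (adjusted p up to 0.159).

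In Venus-negative cells 4 channel genes were higher and 4 lower in the colon, beside 5.74% and 6.53% of all genes. With DESeq2's size factors these were 6 and 3, and all genes split into 1083 higher and 737 lower in place of 864 and 983. In the same comparison 5 of 7 goblet cell markers were higher and 7 of 9 enterocyte markers lower. Of 5 Paneth cell markers 4 were lower and 1 higher. Of 15 enteroendocrine markers 6 were lower and 2 higher, and 1 of 7 stem cell markers was lower. *Kcnma1* was higher, at 2.64, 4.61 and 1.36 CPM against 0.216 to 1.44 CPM (log2 difference 1.98, SE 0.43, adjusted p = 0.0016 by edgeR). *Kcnk3*, an acid-sensitive background channel gene, was at 4.43, 2.49 and 0.680 CPM against 0 to 0.584 CPM (4.39, SE 1.08, adjusted p = 0.005 by edgeR), lost without colonic replicate 1 (adjusted p = 0.061). *Cacng4* was higher too (4.15, SE 1.21, adjusted p = 0.0246), lost with DESeq2 (adjusted p = 0.104) and without colonic replicate 1 (adjusted p = 0.163), as was *Cacna2d2* (2.45, SE 0.73, adjusted p = 0.0237 by edgeR), lost with only the compared libraries (adjusted p = 0.0645) and without colonic replicate 1 or 2 (adjusted p up to 0.105). Venus-negative groups at the floor, jejunal for *Kcnk3* and duodenal for *Cacng4* and *Cacna2d2*, enter these fitted sizes, which are no bounds. *Kcns3*, a silent modifier subunit, and *Kcnj3* had no count in colonic Venus-negative cells and 4 to 40 counts in each small intestinal Venus-negative library, with adjusted p of 0.00366 and 0.0243 by edgeR. The call of *Kcnj3* was lost without any of the 3 colonic libraries (adjusted p up to 0.0933).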

How the data were processed

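The authors prepared stranded total RNA libraries from sorted cells, sequenced single-end reads and aligned them to GRCm38 with STAR (version 2.5.1 in the submitters' processing notes, which also name CASAVA). They deposited raw read counts per Ensembl gene for 24 libraries, without normalisation. The annotation and strand setting of the counting are not given in the sources used here. Lines for reads outside genes were left out of library sizes and tests, and equalled 39.4% to 75.8% of the reads on genes.

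Symbols, biotypes and exon lengths came from GENCODE M21, which held 53274 of 53465 genes. Genes with low counts were removed by filterByExpr, which asks for 10 counts in enough libraries and 15 in total, and counts were normalised by TMM and fitted with the quasi-likelihood test of edgeR 4.0.16 (R 4.3.3), with 1 coefficient per group and Benjamini-Hochberg adjustment over 15044 genes. Contrasts compared the sorts within each region, the colon with the mean of the 3 small intestinal regions within each sort, and these differences between regions. The standard error of a log2 fold change is its size divided by the square root of F. A group with at most 3 counts in every library was taken as at the floor, and a fold against it is a bound: the mean CPM of the other group over the mean CPM of 3 counts in each library of that group. Fold changes fitted near 0 counts depend on a prior count of 0.125. RPKM are CPM per kilobase of merged exons.

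Named genes followed a fixed rule: *Cacna2d1*, in each sort comparison up to 8 members in each direction with the largest called change and no overlap between the sorts, members called the same way in at least 3 regions, up to 5 members in each direction of each regional and interaction contrast, the 10 highest by RPKM, and 15 textbook channels of the epithelium. Other called members named in the text complete the counts and were chosen after their values were seen. Not every member is reported here by name. The members and all lists were chosen with earlier results of these data known. Groups came from the labels, and replicate numbers follow accession order. Replicates were compared by chi-square and no 2 libraries agreed within sampling noise. Alternatives were DESeq2 1.42.0, other scaling factors, no filter, nuclear protein-coding genes only, the i5 index as covariate, the compared libraries alone, other detection rules and leaving out each library in turn. The p-values measure the spread between these libraries.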

Additional observations from a re-analysis of the deposited data

Results flagged for a closer look

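For 12 results the sort difference itself differed between regions, by the interaction term of the edgeR fit with adjusted p under 0.05. They were 2 of 48 channel genes for the colon, beside 4.13% of all genes, and 10 of 48 for the duodenum, beside 17.5%, so that both counts lie near the share of all genes. Between the colon and the mean of the small intestine these were *Cacna1h* (5.28 on the log2 scale, SE 1.0, adjusted p = 0.00246) and *Kcnq1* (1.5, SE 0.40, adjusted p = 0.0279), each relatively higher in colonic Venus-positive cells. Between the duodenum and the mean of jejunum and ileum, 9 genes had the higher difference in the duodenum. Those with no group of the contrast at the floor were *Kcnk6* (4.17, SE 0.74, adjusted p = 0.000231), *Kcnma1* (2.95, SE 0.73, adjusted p = 0.0049), *Kcnn4* (2.95, SE 0.57, adjusted p = 0.000539), *Kcnk1* (2.51, SE 0.30, adjusted p = 2.57e-06), *Kcne3* (1.91, SE 0.66, adjusted p = 0.0439) and *Kcnq1* (1.81, SE 0.43, adjusted p = 0.0034). Levels of *Kcnk6* and *Kcnma1* were close to it in duodenal Venus-negative cells, at 10, 0 and 4 and at 12, 9 and 3 counts. In *Kcnk1* every duodenal Venus-positive library was above and every jejunal Venus-positive library below the Venus-negative libraries of its region. Among cell type markers, 7 of 7 goblet, 4 of 5 Paneth, 5 of 7 stem and 2 of 6 tuft cell markers had the higher difference in the duodenum. The lower one was found for 8 of 9 enterocyte and 2 of 15 enteroendocrine markers.

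The other 3, *Cacna1b* (6.88, SE 1.64, adjusted p = 0.00383), *Cacna2d2* (5.80, SE 1.35, adjusted p = 0.00305) and *Scn8a* (5.98, SE 1.92, adjusted p = 0.0308), have a group at the floor in the contrast, so that the fitted size is no bound. *Scn8a* was not called in the duodenum by itself, at 0, 4 and 10 counts in Venus-positive and 2, 0 and 3 in Venus-negative libraries, and its interaction was lost without the filter (adjusted p = 0.059) and without any of 10 of the 18 libraries (adjusted p up to 0.137). *Kcnk5* alone had the lower difference in the duodenum (-2.25, SE 0.39, adjusted p = 0.00019).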

How the results depend on the processing

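None of the named genes' results reversed. With all libraries kept, 1164 gene results stayed on their side of the threshold, 29 lost and 33 gained a call, and without single libraries 1303 stayed, 151 lost and 16 gained one. Counts of channel genes that moved by more than 1.5 times were as follows. With only the compared libraries, in which fewer genes were tested, 1 gene was higher and 11 lower in the jejunum, and 9 were higher in colonic Venus-positive cells. In the colonic sort comparison 7 were lower with DESeq2 and 7 with nuclear protein-coding genes only. In Venus-negative cells 13 were higher in the colon without the filter and 7 with nuclear protein-coding genes only. Scaling by library size alone left 1 gene with a colonic interaction. The causes of the last 5 values were not tested. With more than 3 counts in at least 2 of 3 libraries, a looser rule, 25 and 38 genes were detected in Venus-positive and Venus-negative jejunal cells, 31 and 55 in ileal cells and 36 in Venus-negative colonic cells, and with 0.5 CPM in all libraries 19 in Venus-negative ileal cells.

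Leaving out each library in turn gave these ranges. In the duodenum 6 to 7 genes were higher and 2 to 7 lower, in the jejunum 2 to 4 and 11 to 18, in the ileum 3 to 4 and 7 to 12, in the colon 2 to 5 and 0 to 4. The colon against the small intestine gave 11 to 15 higher and 2 lower in Venus-positive, 3 to 6 and 2 to 4 in Venus-negative cells, and the interactions 1 to 5 for the colon and 8 to 11 for the duodenum. Shifts over 1.5 times came, for lower genes, without duodenal Venus-positive replicates 1 or 2 or Venus-negative replicate 3, without jejunal Venus-positive replicate 1, without ileal Venus-positive replicates 2 or 3, and without any colonic library other than Venus-negative replicate 3 in the sort comparison, and without Venus-negative replicates 2 or 3 of the colon in the comparison of regions. For higher genes of the colon they came without Venus-positive replicate 3 or Venus-negative replicate 2, and for the colonic interaction without jejunal Venus-positive replicate 3, jejunal Venus-negative replicate 1 or any colonic library other than Venus-positive replicate 3. Over all genes, library size alone turned the balance of the colonic interaction from 414 higher and 207 lower to 138 and 266 (284 and 274 with DESeq2's size factors), and that of the duodenum from 1444 and 1188 to 1780 and 639. Detected genes numbered 17 to 19 and 29 to 34 in Venus-positive and Venus-negative duodenal, 18 to 20 and 26 to 31 in jejunal, 20 to 27 and 33 to 45 in ileal, and 22 to 29 and 23 to 33 in colonic cells, the rule then asking for 2 libraries.

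The 10 genes highest by RPKM were the same without TMM. No paired analysis was possible because the labels do not name the mouse of a library and the replicate numbers only follow accession order. Intervals of counting error were not used, and genes at the floor were not detectable at this depth rather than shown to be absent.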
